A study of Mus musculus with 6 samples.

Results

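The replication-dependent histone genes code for the core histones H2A, H2B, H3 and H4, around which DNA is wound, and for the linker histone H1, which binds the DNA between nucleosomes. They were taken from the deposited count table by name, as every gene called Hist followed by 1, 2, 3 or 4 and the letter h, without pseudogenes and with at least 10 raw counts summed over the 6 libraries. This gave 54 of the 67 genes with such a name and of the 53801 genes in the table, with 6 genes for H1, 11 for H2A, 14 for H2B, 11 for H3 and 12 for H4. The rule uses names and total counts and no difference between the groups.

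RNA was sequenced from PDPN+PDGFRα+ cells sorted out of MO5 tumors, which grew under the skin of mice aged 8 to 12 weeks from B16-OVA melanoma cells, after dead cells, CD45+ leukocytes and CD31+ endothelial cells had been gated out. The DTR group (n = 3 libraries) came from ADAM12-DTR mice, whose BAC transgene places the diphtheria toxin receptor, together with tTA, under the control of the Adam12 promoter. The Ctrl group (n = 3 libraries) came from littermates of the same sex without the transgene. The labels give diphtheria toxin (DT) to both groups, and the methods state 100 ng per day for the ADAM12-DTR mice, in which DT removes ADAM12+ cells. The comparison of DTR with Ctrl asks which genes differ in the remaining PDPN+PDGFRα+ cells. The labels do not say whether a library holds the cells of a single mouse, so p-values measure the spread between these libraries. In such a mixed sample, fewer cycling cells and less histone RNA per cycling cell cannot be told apart.

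Replication-dependent histone genes are switched on together as cells enter S phase, through NPAT, and their mRNAs are rapidly degraded when DNA synthesis stops. Their mRNAs usually have no poly(A) tail. They end instead just after a conserved stem-loop, which is bound by SLBP and cut with the help of the U7 snRNP. Libraries primed on poly(A) tails largely miss such mRNAs, whereas the kit used here primes total RNA at random.

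CPM is a gene's counts relative to the total of its library, scaled here by TMM factors. Library totals ran from 22339635 to 34271929 counts. Before that scaling, 3 counts correspond to between 0.0875 and 0.134 CPM. That floor covers counting error only. Libraries of 1 group correlated with each other at r of 0.961 to 0.974 over log2 CPM, and libraries of different groups at 0.953 to 0.974. Adam12 stood at 216, 181 and 175.0 CPM in Ctrl and at 165, 151 and 112 CPM in DTR, with an edgeR Benjamini-Hochberg adjusted p of 0.602. The sorting markers Pdgfra and Pdpn were present in all 6 libraries, at 42.6 to 132 and 46.0 to 99.1 CPM. So were the pigment genes of the melanoma cells, with Dct at 5745 to 7572 CPM and a summed level of the 12 melanoma markers of 16860 to 21030 CPM. Which cells the histone RNA came from was not tested.

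Stem-loops were searched in the annotated transcripts (GENCODE M21, GRCm38), as 16 bases that begin with GG, end with CC and form 6 Watson-Crick pairs around a 4-base loop beginning with TT. Such a run lay after the coding part in 36 of the 54 genes (66.7%), against 151 of 21951 protein-coding genes (0.688%) with a match anywhere in a transcript. The runs fell into 6 sequences, and 1 gene for each is shown with 5 bases on either side, written 5′ to 3′ on the strand of the gene with the stem-loop in capitals.
Hist1h1c: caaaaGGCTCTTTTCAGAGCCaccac
Hist1h3e: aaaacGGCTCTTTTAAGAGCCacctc
Hist2h2ac: aaaaaGGCTCTTTTTAGAGCCaccaa
Hist1h4d: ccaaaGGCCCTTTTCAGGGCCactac
Hist2h4: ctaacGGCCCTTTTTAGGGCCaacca
Hist1h4j: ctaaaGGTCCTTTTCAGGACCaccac

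In GRCm38 these windows are chr13:23739507-23739532 (+) for Hist1h1c, chr13:23561898-23561923 (-) for Hist1h3e and chr3:96220413-96220438 (-) for Hist2h2ac. For the H4 genes they are chr13:23581945-23581970 (+) for Hist1h4d, chr3:96262934-96262959 (-) for Hist2h4 and chr13:21735432-21735457 (+) for Hist1h4j. All 6 lie in the part of the exon that follows the stop codon. Every H1, H2A, H2B and H3 gene with a match had a stem that opens GGCTC, while the H4 genes had GGCCC (8 genes) or GGTCC (2 genes). The Hist1h1c sequence was shared by 19 genes, 3 of H1, 4 of H2A, 8 of H2B and 4 of H3. The other 18 genes had no match in the annotated transcript. In 14 of these the annotation stops within 60 bases of the coding part, so that the stem-loop may lie beyond it.

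The 54 genes lie in 4 places, with 46 on chr13 between 21715763 and 23764406, 6 on chr3 between 96219865 and 96269141, Hist4h4 alone on chr6 and Hist3h2ba alone on chr11. A gap of 1487373 bases between Hist1h2bj and Hist1h4h divides the chr13 genes into 18 and 28. Together the 54 genes took between 0.0667% and 0.146% of a library's counts.

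Summed over the 54 genes, histone RNA was lower on average in DTR than in Ctrl, but the groups overlapped. The sum was 1490, 1088 and 1177 CPM in Ctrl replicates 1, 2 and 3 and 1290, 843 and 657 CPM in DTR replicates 1, 2 and 3. DTR replicate 1 thus lay within the range of Ctrl, and DTR replicates 2 and 3 lay below all Ctrl libraries. The means were 1252 ± 211 and 930 ± 325 CPM (SD, n = 3 each), a ratio of 0.743, and no test was made on sums. The ratio was -0.43 on the log2 scale, -0.74 without DTR replicate 1 and -0.23 without DTR replicate 3.

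**Figure D1:**
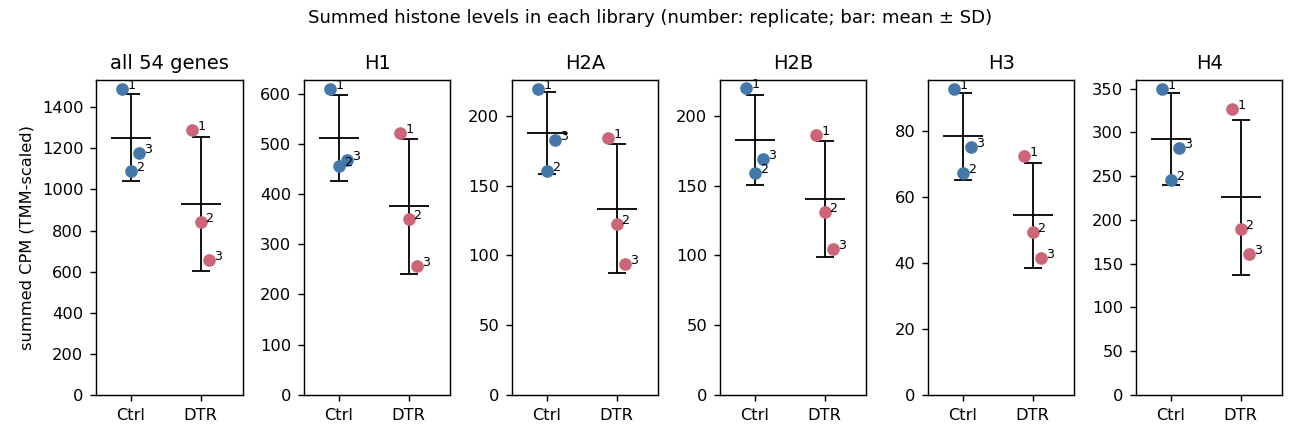
Summed CPM (y axis, from 0) of all 54 genes and of each histone family in the 3 Ctrl and 3 DTR libraries. Points are libraries numbered by replicate, and bars are the mean ± SD. In each panel DTR replicates 2 and 3 lie below all Ctrl libraries and DTR replicate 1 lies among them, with 1290 CPM in the panel of all genes.

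The 5 families moved in parallel from library to library. The H1 sum was 609, 456 and 467 CPM in Ctrl and 521, 350.3 and 256 CPM in DTR. The H2A sum was 219, 161 and 183 CPM in Ctrl and 184, 123 and 93.8 CPM in DTR. The order of the libraries was similar in both, with Ctrl replicate 1 at the top and DTR replicate 3 at the bottom. The H2B sum was 220, 159 and 169 CPM in Ctrl and 186, 131 and 105 CPM in DTR. The H3 sum was 92.7, 67.1 and 75.0 CPM in Ctrl and 72.2, 49.5 and 41.6 CPM in DTR, and the H4 sum 349.5, 246 and 282 CPM in Ctrl and 327, 189.6 and 161 CPM in DTR. In each family DTR replicates 2 and 3 were below the lowest Ctrl library and DTR replicate 1 was not. The ratio of the means ran from 0.695 for H3 to 0.771 for H4. On the log2 scale these ratios were -0.525 and -0.37. With a library left out they ran from -0.78 to -0.36 for H3 and from -0.74 to -0.18 for H4. The ranges were -0.75 to -0.23 for H1, -0.79 to -0.29 for H2A and -0.63 to -0.21 for H2B.

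H1 made up 39.0% to 41.9% of the summed CPM over the 6 libraries, H4 22.5% to 25.3% and H3 5.60% to 6.37%. H2A made up 14.7%, 14.8% and 15.5% in Ctrl and 14.3%, 14.6% and 14.3% in DTR, so that its groups did not overlap, and H2B made up 14.4% to 15.9% over the 6 libraries. Counted per kilobase of annotated exon, the Ctrl means were highest for H2A (343 ± 53.5) and H4 (341 ± 65.6). H1 (259 ± 44.01), H2B (208 ± 36.4) and H3 (104 ± 17.7 CPM per kb, SD, n = 3 libraries each) followed. H2A and H4 did not differ beyond their spread. The annotated length of several genes reaches far past the stem-loop, to 4884 bases beyond it in Hist1h1d, and values per kilobase of such genes are low for that reason of arithmetic. Hist1h1c and Hist1h1e are annotated 840 and 1153 bases past it, so the order of the families on this scale depends on annotated length.

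Of the 54 genes, 48 passed the filter on low counts and were tested among 15133 genes, and 0 had an adjusted p under 0.05 (edgeR's quasi-likelihood test, Benjamini-Hochberg adjustment). The background for this call was 0.0%, since 0 of the 15133 genes passed. The lowest adjusted p of a histone gene was 0.602, and DESeq2 also called 0 of the 54 genes, against 0.151% of all genes to which it gave an adjusted p, with a lowest adjusted p of 0.312. At an unadjusted p under 0.05, 3 histone genes were lower in DTR, against 4.11% of all tested genes, and 0 were higher, against 3.81%. In 4 of the 48 genes every DTR library was below every Ctrl library, where 8.18% of all tested genes were so, and in 0 every DTR library was above, against 6.32%. Both of these counts of lower genes, made with edgeR's filter and scaling, were near their background. With DESeq2, 7 of the 54 histone genes were lower at an unadjusted p under 0.05, against 1.96% of the 26748 genes it tested. That fit also kept genes of lower counts. With edgeR and every gene that had a count tested, 9 of the 54 were lower (16.7%), against 2.57% of 26774 genes.

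The direction was more uneven than the calls. The log2 fold change, DTR over Ctrl, was below 0 in 44 of the 48 genes and in 50.4% of all tested genes. Its median was -0.43 over the histone genes and -0.00 over all tested genes. These genes rise and fall together between libraries, so their signs are not separate observations. The median was -0.44 for H1 (6 tested), -0.34 for H2A (11), -0.34 for H2B (11), -0.50 for H3 (9) and -0.40 for H4 (11). Without DTR replicate 1 the median over all histone genes was -0.80, and without DTR replicate 3 it was -0.20. The count of genes lower at an unadjusted p under 0.05 was 22 without DTR replicate 1, where 5.36% of all tested genes were so. It was 0 without Ctrl replicate 1 and 0 without DTR replicate 2, against 3.19% and 3.09%.

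**Figure D2:**
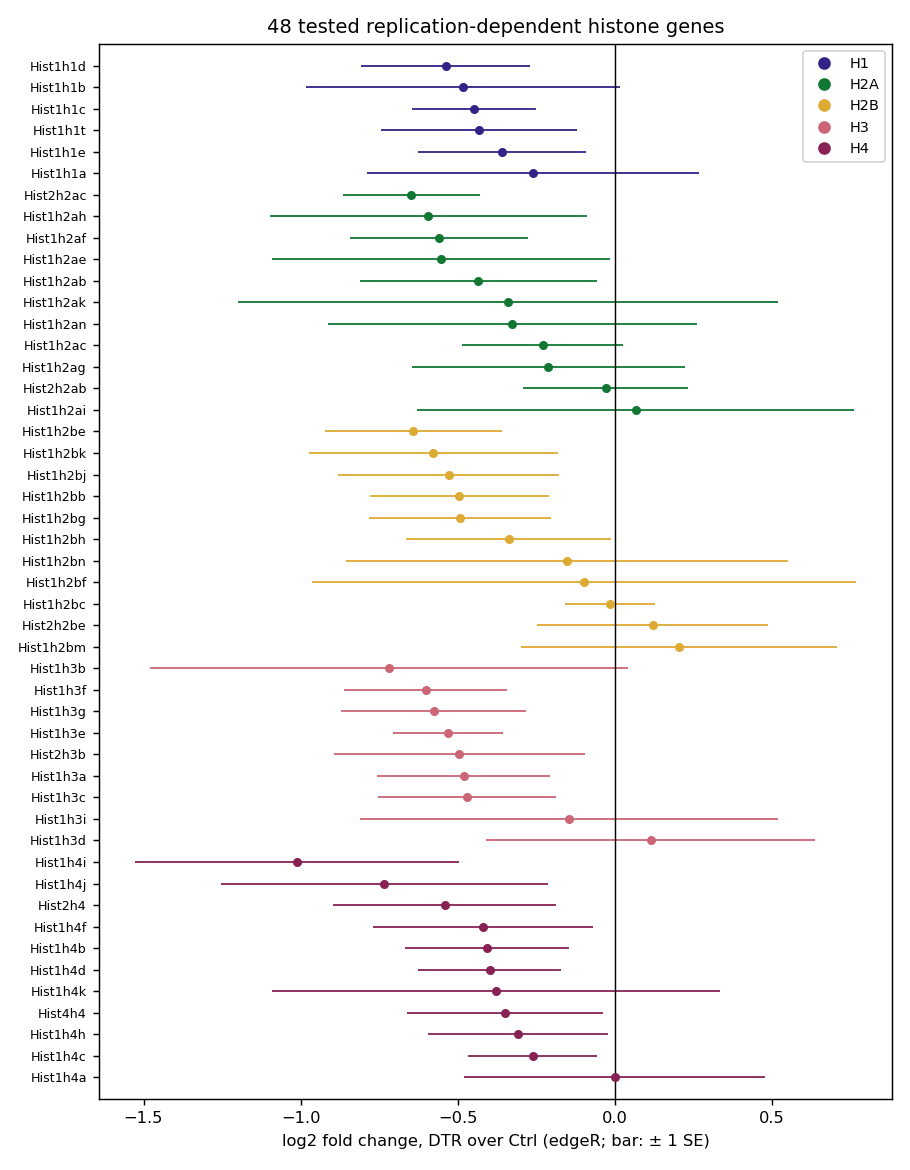
Log2 fold change of DTR over Ctrl (x axis) for the 48 tested histone genes, sorted within families marked by colour. Points are edgeR estimates and bars ± 1 SE. The points spread from -1.01 (Hist1h4i) to 0.20 (Hist1h2bm), and 44 lie left of 0.

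Among the linker histone genes Hist1h1c, Hist1h1e and Hist1h1d were abundant, each at a mean over 100 CPM, and Hist1h1a, Hist1h1b and Hist1h1t were not, at 5.18, 7.14 and 11.7 CPM. All 6 had log2 fold changes below 0, from -0.54 for Hist1h1d to -0.26 for Hist1h1a. Hist1h1c stood at 235, 184 and 182 CPM in Ctrl and at 191, 138 and 111 CPM in DTR. DTR replicate 1 overlapped the Ctrl libraries and the other 2 DTR libraries did not. The means were 200.3 ± 30.1 and 147 ± 40.6 CPM (SD, n = 3), a log2 fold change of -0.45 ± 0.20 (SE), with an edgeR Benjamini-Hochberg adjusted p of 0.630. Hist1h1d had 156, 114 and 117 CPM in Ctrl and 127, 82.1 and 57.1 CPM in DTR, again with only DTR replicate 1 inside the Ctrl range. Hist1h1e had 182.5, 132 and 148 CPM in Ctrl and 172, 112 and 76.7 CPM in DTR, in the same order. Its annotated exon overlaps Hist1h2be and Gm11398 on the same strand, so that reads there cannot be told apart. Hist1h1a, at 1.45 CPM in DTR replicate 3 and 7.61 CPM in DTR replicate 1, varied widely within the DTR group, and its estimate was 0.16 without DTR replicate 3. Hist1h1t, the testis H1, was measured at 7.18 to 16.03 CPM in these tumor libraries.

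Of the H2A genes, which form the core with H2B, Hist2h2ac had the lowest estimate. It lies on chr3:96220361-96220880 (-), and its values were 90.0, 71.2 and 66.7 CPM in Ctrl and 65.9, 39.8 and 39.6 CPM in DTR. The groups did not overlap, although DTR replicate 1 and Ctrl replicate 3 were nearly level. The log2 fold change was -0.65 ± 0.22 (SE), with an unadjusted p of 0.0175 and an edgeR Benjamini-Hochberg adjusted p of 0.602, and the two-sided exact permutation test gave p = 0.1, the smallest that 3 libraries against 3 allow. Hist2h2ac was also the highest histone gene per kilobase of annotated exon, at 119.6 CPM per kb over all libraries. Hist1h1c (111), Hist1h2af (105) and Hist1h4d (99.98) followed. This order depends on annotated length, which reaches 57 bases past the stem-loop in Hist2h2ac, 840 in Hist1h1c and 770 in Hist1h4d. Hist1h2af had 58.2, 38.8 and 53.5 CPM in Ctrl and 47.9, 33.0 and 21.02 CPM in DTR, which overlapped. Hist1h2ac had 40.4, 28.3 and 35.2 CPM in Ctrl and 40.9, 27.9 and 19.7 CPM in DTR, where only DTR replicate 3 was well below Ctrl. At the other end, Hist1h2ai had a log2 fold change of 0.07 at 0.209 to 0.843 CPM, and 90.1% of its sequence words are shared with other transcripts.

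Among the H2B genes the estimates ran from -0.64 for Hist1h2be to 0.20 for Hist1h2bm. Hist1h2be had 59.1, 44.9 and 40.6 CPM in Ctrl and 45.4, 26.2 and 20.8 CPM in DTR, with an SE of 0.28 and an edgeR Benjamini-Hochberg adjusted p of 0.630. Hist1h2bb had 44.8, 31.9 and 38.4 CPM in Ctrl and 38.5, 26.9 and 16.1 CPM in DTR. In both genes DTR replicates 2 and 3 were the lowest libraries. Hist1h2bc did not follow this order, with 50.8, 38.0 and 36.7 CPM in Ctrl and 44.3, 38.7 and 41.1 CPM in DTR. All 3 DTR libraries of Hist1h2bc lay within the Ctrl range, its log2 fold change was -0.02 ± 0.14 (SE), and its share of the H2B sum was 21.6% to 23.9% in Ctrl and 23.8%, 29.6% and 39.3% in DTR replicates 1, 2 and 3. Hist1h2bm was measured at only 0.529 to 1.37 CPM.

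The H3 family held the other 2 genes at an unadjusted p under 0.05. Hist1h3e, on chr13:23561534-23562369 (-), had 21.9, 18.1 and 18.6 CPM in Ctrl and 16.6, 12.5 and 11.4 CPM in DTR. The groups did not overlap. The means were 19.5 ± 2.03 and 13.5 ± 2.74 CPM (SD, n = 3), and the log2 fold change was -0.53 ± 0.17 (SE), with an unadjusted p of 0.0160, an edgeR Benjamini-Hochberg adjusted p of 0.602 and an exact permutation p of 0.1. Hist1h3f, on chr13:23544052-23545312 (+), had 27.7, 18.1 and 21.98 CPM in Ctrl and 20.5, 13.3 and 10.7 CPM in DTR, with DTR replicate 1 above the lowest Ctrl library. Its log2 fold change was -0.60 ± 0.26 (SE), with an edgeR unadjusted p of 0.0482 and an adjusted p of 0.625. Hist1h3e shares 73.4% of its 50-base sequence words with other transcripts, mostly with Hist1h3f, so the pair may not be separate measurements. The third abundant H3 gene, Hist1h3c, had 13.7, 10.5 and 14.9 CPM in Ctrl and 13.7, 7.21 and 7.23 CPM in DTR. The lowest estimate, -0.72 ± 0.76 (SE) for Hist1h3b, belonged to a gene at 0.352 to 6.49 CPM, and the highest was 0.11 for Hist1h3d.

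All 11 tested H4 genes had estimates below 0, although that of Hist1h4a was -0.00 and turned above 0 under other scalings. Hist1h4d, the most abundant H4 gene, had 149, 109 and 130.1 CPM in Ctrl and 136, 83.9 and 74.3 CPM in DTR, a log2 fold change of -0.40 ± 0.23 (SE). Hist4h4, the only member on chr6, had 48.3, 30.8 and 41.3 CPM in Ctrl and 48.6, 23.3 and 22.4 CPM in DTR. Hist1h4h had 42.5, 27.9 and 30.9 CPM in Ctrl and 40.4, 22.1 and 19.2 CPM in DTR. In these 3 genes DTR replicate 1 was above the middle Ctrl library and DTR replicates 2 and 3 were below all Ctrl libraries. Hist1h4i and Hist1h4j were the remaining tested genes whose groups did not overlap. Hist1h4i had 1.84, 0.711 and 1.09 CPM in Ctrl and 0.639, 0.708 and 0.441 CPM in DTR, with a log2 fold change of -1.01 ± 0.52 (SE), and Hist1h4j had 0.408, 0.544 and 0.667 CPM in Ctrl and 0.378, 0.322 and 0.264 CPM in DTR. Both rest on few reads, 147 and 71 counts over all libraries, and their edgeR Benjamini-Hochberg adjusted p-values were 0.649 and 0.719.

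The same 2 libraries stood out gene after gene. DTR replicate 3 was the lowest of the 6 libraries in 38 of the 48 tested histone genes, against 23.2% of all tested genes, and Ctrl replicate 1 was the highest in 29 of the 48, against 16.0%. Measured as the deviation of log2 CPM from each gene's mean over the 6 libraries, the median over the 48 genes was 0.51, 0.03 and 0.17 in Ctrl replicates 1, 2 and 3 and 0.39, -0.24 and -0.76 in DTR replicates 1, 2 and 3. The step from DTR replicate 1 to DTR replicate 3 was larger than that between the group means. In DTR replicate 3, 46 of the 48 genes were below their own mean, and in DTR replicate 1 only 6 were.

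**Figure D3:**
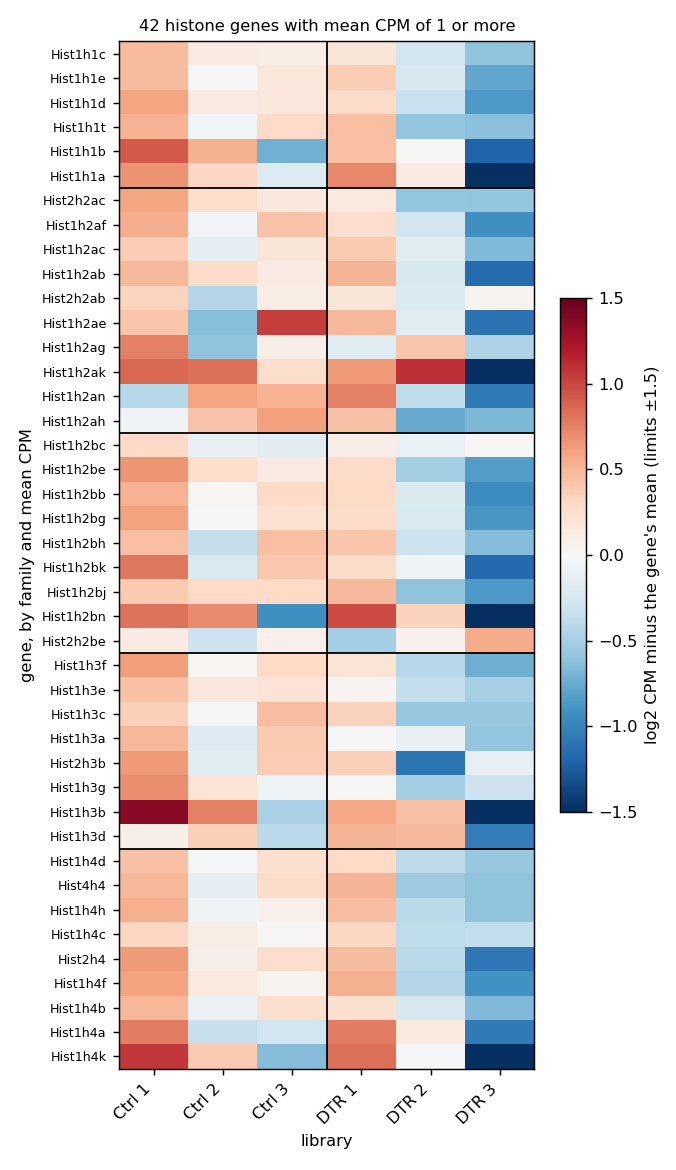
Deviation of log2 CPM from each gene's mean over the 6 libraries (colour, limited to ±1.5) for the 42 histone genes with a mean of 1 CPM or more. Columns are libraries and rows are genes, grouped by family and sorted by mean CPM. Ctrl replicate 1 and DTR replicate 1 are mostly above the mean and DTR replicate 3 mostly below it, while Hist1h2bc is pale in all 6 columns and Hist2h2be runs the other way.

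Many H2A and H2B genes sit head to head and are read outwards from a shared stretch of DNA. Of the 54 genes, 16 formed 8 such pairs of an H2A and an H2B gene, with 175 to 301 bases between the annotated starts. In 3 pairs, Hist1h2ac with Hist1h2bc, Hist1h2an with Hist1h2bp and Hist2h2ac with Hist2h2be, the H2A gene was lowest in DTR replicate 3 while the H2B gene there was within or above its Ctrl range. The shared promoters of the first and the last of these pairs are shown for that reason, since Hist1h2bp had few counts. They were chosen after their values were seen, and the difference between partners was not tested. They are printed 5′ to 3′ on the plus strand of GRCm38 (RefSeq), from the base after the start of the H2A gene, which is read to the left, to the base before the start of the H2B gene, which is read to the right. Capitals mark, on either strand, the TATA box (TATAAA), the CCAAT box and the octamer (ATTTGCAT).
Hist1h2ac to Hist1h2bc, chr13:23683949-23684198: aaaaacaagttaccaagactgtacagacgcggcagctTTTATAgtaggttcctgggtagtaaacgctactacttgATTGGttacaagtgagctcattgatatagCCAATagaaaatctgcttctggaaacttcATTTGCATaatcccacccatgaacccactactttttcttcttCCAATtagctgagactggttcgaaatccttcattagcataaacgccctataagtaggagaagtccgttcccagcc
Hist2h2ac to Hist2h2be, chr3:96220881-96221118: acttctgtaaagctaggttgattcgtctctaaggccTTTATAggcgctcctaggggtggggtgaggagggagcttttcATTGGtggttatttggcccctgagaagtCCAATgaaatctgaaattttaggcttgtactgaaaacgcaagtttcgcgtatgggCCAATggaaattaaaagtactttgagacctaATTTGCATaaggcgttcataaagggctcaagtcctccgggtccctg

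Both stretches hold a TATAAA on the H2A side, 3 CCAAT boxes and an octamer, which lies nearer to the H2B gene. No TATAAA in these letters faces the H2B gene in either stretch, which says nothing of other sequences that could serve as one. On chr13, Hist1h2ac ran at 0.796, 0.746 and 0.960 times the CPM of Hist1h2bc in Ctrl and at 0.924, 0.720 and 0.479 times in DTR. On chr3, Hist2h2ac ran at 33.0, 35.5 and 25.3 times the CPM of Hist2h2be in Ctrl and at 37.8, 15.3 and 10.7 times in DTR. In both pairs the ratio was below the Ctrl range in DTR replicates 2 and 3. In DTR replicate 1 it was within that range on chr13 and above it on chr3. Hist2h2be itself had 2.73, 2.01 and 2.63 CPM in Ctrl and 1.74, 2.61 and 3.70 CPM in DTR, a log2 fold change of 0.12 ± 0.37 (SE), and was highest in DTR replicate 3. The other pairs did not all share this pattern. Of the 8 head-to-head pairs, DTR replicate 3 was below all Ctrl libraries in both partners of 3, in 1 partner of 4 and in neither partner of 1. Both partners were tested in 6 pairs, and in 5 of them both estimates were below 0, Hist2h2ac with Hist2h2be being the exception. In the pair Hist1h2ae and Hist1h2bg they were -0.55 ± 0.54 and -0.49 ± 0.29 (SE).

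**Figure D4:**
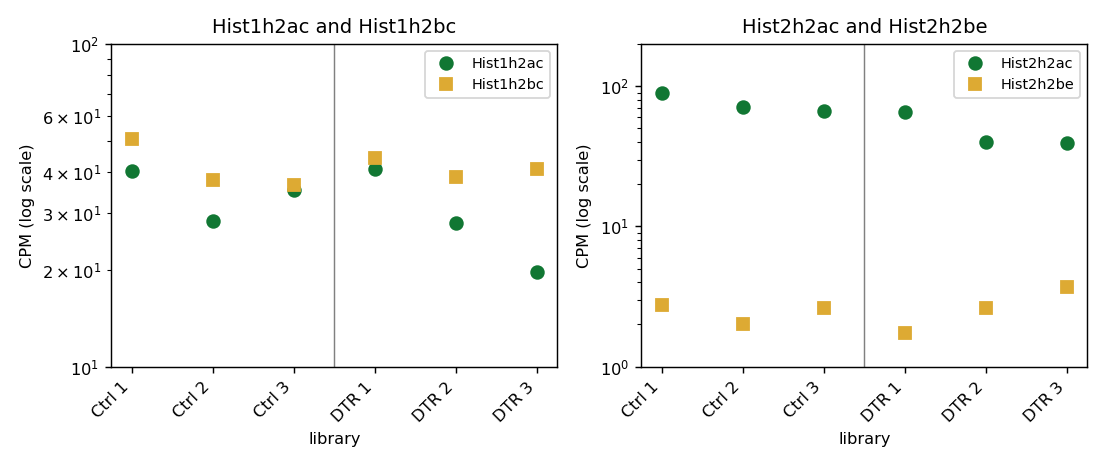
CPM (log scale) of the H2A gene (circles) and the H2B gene (squares) of the head-to-head pairs Hist1h2ac with Hist1h2bc and Hist2h2ac with Hist2h2be in the 6 libraries. The H2A genes are lowest in DTR replicate 3, at 19.7 and 39.6 CPM, and the H2B genes are not, at 41.1 and 3.70 CPM.

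Over all promoters, RefSeq windows from 250 bases before to 50 bases after the start were matched for 49 of the 54 genes. Windows of a head-to-head pair overlap and are not separate observations. CCAAT, on either strand, was in 41 of the 49 windows and in 37.9% of 27025 windows of all genes. It was in every H1, H2A, H2B and H3 window and in 3 of 11 H4 windows. TATAAA was in 30 windows (61.2%, against 14.2% of all windows). The octamer ATTTGCAT was in 9 windows (18.4%, against 1.75%), 5 of H2A and 4 of H2B. The H1 box AAACACA was in 5 of 6 H1 windows, against 7.14% of all windows. No motif is contained in another, and a match is not evidence of binding.

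The genes were also described by how their annotated transcript ends, a division made after their values were seen and not tested. The 4 genes whose transcript runs on without a match to the stem-loop pattern were Hist1h2bc, which is spliced into 2 exons, Hist2h2be, Hist1h3g and Hist1h4a. A stem-loop that departs from the searched pattern would have been missed. The sum of these 4 genes was 72.4, 50.3 and 49.0 CPM in Ctrl and 62.2, 52.0 and 51.5 CPM in DTR, and the groups overlapped in full. Most of it was Hist1h2bc, and the estimates of the 4 ran from -0.58 (Hist1h3g) to 0.12 (Hist2h2be), so they did not behave as a group. The other 14 genes without a match end within 60 bases of the coding part. They summed to 104.8, 74.8 and 81.1 CPM in Ctrl and 91.1, 62.6 and 38.1 CPM in DTR. Of these, 11 of 12 tested genes had estimates below 0, with a median of -0.33. The 15 genes that end within 60 bases of a stem-loop summed to 263, 190.5 and 200.1 CPM in Ctrl and 218, 138 and 105.0 CPM in DTR. Here 12 of 13 tested genes had estimates below 0, with a median of -0.43. For the 21 genes whose annotation continues past the stem-loop, 18 of 19 tested estimates were below 0, with a median of -0.47.

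By loop, the 3 genes with TTTT (Hist2h2ac, Hist1h4i and Hist2h4) had a median of -0.65, the 6 with TTTA -0.51 and the 23 tested genes with TTTC -0.41. All 9 genes with TTTT or TTTA had estimates below 0, as did 21 of the 23 with TTTC. Differences between loops were not tested, the loops are spread unevenly over the families, and Hist1h4i had only 147 counts. All 22 genes at a mean of 10 CPM or more had estimates below 0, with a median of -0.44. For the 20 genes at 1 to 10 CPM, 18 were below 0, with a median of -0.41. For the 6 tested genes under 1 CPM, 4 were below 0, with a median of -0.12.

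Histone genes are near-copies of each other, and how reads with several alignments were counted is not given in the sources used here. The share of a gene's 50-base words found in other annotated transcripts ran from 0.0% to 93.9% in the 54 genes. The 8 genes under 10% (Hist1h1a, Hist1h1b, Hist1h1c, Hist1h1d, Hist1h1t, Hist2h2be, Hist2h4 and Hist4h4) had estimates with a median of -0.44 and summed to 506, 376 and 385 CPM in Ctrl and 425, 278 and 214 CPM in DTR, and the same libraries stood high and low. The 6 genes that were not tested had 12 to 39 counts in all. They were Hist1h2bl, Hist1h2bp, Hist3h2ba, Hist1h3h, Hist2h3c2 and Hist1h4n. Just inside the limit of 10 counts were Hist1h3h with 12 and Hist1h4n with 15, and just outside it were Hist1h2ad and Hist1h2ba with 7 each and Hist1h4m with 6. Hist1h2bl had 3, 0 and 5 counts in Ctrl and 8, 12 and 11 in DTR, and Hist3h2ba 4, 9 and 8 in Ctrl and 0, 3 and 0 in DTR, both too few to rank. Another 8 named histone genes were listed at 0 counts in all libraries, among them Hist1h2ao and Hist1h2ap, which share 93.5% and 93.1% of their words with other transcripts, so their expression cannot be read from the table.

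Genes for the proteins that make and turn over histone mRNA had estimates from -0.25 (Upf1) to 0.15 (Mif4gd). Of 17 genes for histone mRNA 3′ end formation and turnover, 0 passed the adjusted threshold (edgeR, Benjamini-Hochberg), 11 had estimates below 0, and the median was -0.12. In 3 of the 17 every DTR library was below every Ctrl library, against 8.18% of all tested genes. In 0 every DTR library was above, against 6.32%. Slbp, whose protein binds the stem-loop, had 63.1, 53.3 and 57.9 CPM in Ctrl and 65.9, 50.1 and 50.6 CPM in DTR, a log2 fold change of -0.06 ± 0.13 (SE). Npat, the transcriptional coactivator of these genes, was at 0.06 ± 0.13, and Lsm11, a protein of the U7 snRNP, at -0.16 ± 0.18 (SE). The list's lowest gene was Upf1, the RNA helicase needed for histone mRNA decay, with 180.3, 185 and 173 CPM in Ctrl and 163, 149 and 139.5 CPM in DTR. The groups did not overlap for Upf1, at -0.25 ± 0.09 (SE), an unadjusted p of 0.0208 and an adjusted p of 0.602 in edgeR with Benjamini-Hochberg adjustment. The highest was Mif4gd, a partner of SLBP in translation, at 0.15 ± 0.18 (SE).

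The list of replication-independent histone variants, most of whose mRNAs are polyadenylated and made outside S phase too, had a median of -0.11 over 11 genes, 9 of them below 0. It includes H2afx, which is known to give a stem-loop mRNA as well as a polyadenylated one, with 78.3, 46.1 and 62.2 CPM in Ctrl and 73.0, 52.7 and 28.2 CPM in DTR. H2afj had 26.6, 32.8 and 34.5 CPM in Ctrl and 20.95, 25.4 and 22.5 CPM in DTR, and H2afv had 29.3, 26.8 and 29.6 CPM in Ctrl and 24.4, 23.3 and 18.7 CPM in DTR. Neither gene's groups overlapped, with log2 fold changes of -0.45 ± 0.14 and -0.37 ± 0.13 (SE) and edgeR Benjamini-Hochberg adjusted p-values of 0.602 for both. H3f3a, which codes for the variant H3.3 together with H3f3b, was the highest at 0.25 ± 0.14 (SE), and H3f3b was at -0.11 ± 0.10. Of 19 histone chaperones, which carry histones to DNA, 0 passed the adjusted threshold in edgeR and 16 were below 0, from -0.22 for Ssrp1 to 0.14 for Asf1a, with a median of -0.09.

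As a sum, DNA replication genes shared the low level in DTR replicate 3 but not the whole histone pattern, while some single genes had all of it. The 44 listed genes summed to 2954, 2216 and 2762 CPM in Ctrl and 3068, 2386 and 1777 CPM in DTR. DTR replicate 1 was the highest of the 6 libraries, DTR replicate 2 lay within the Ctrl range and DTR replicate 3 was below all others. Of 43 tested genes, 0 passed the adjusted threshold in edgeR with Benjamini-Hochberg adjustment, 0 were at an unadjusted p under 0.05, and the median was -0.09, with E2f1 lowest at -0.39 ± 0.28 and Pola2 highest at 0.19 ± 0.20 (SE). E2f1, a transcription factor of S phase genes, had 32.4, 22.2 and 24.7 CPM in Ctrl and 27.9, 19.9 and 12.5 CPM in DTR. Mcm3, of the replicative helicase, had 209, 163 and 186 CPM in Ctrl and 195, 142 and 98.3 CPM in DTR. In both, as in Mcm7, DTR replicate 1 was within the Ctrl range and DTR replicates 2 and 3 were below it, as in Hist1h1c and Hist1h1d. Across the 6 libraries, whose depth and group all genes share, Pearson's r with the histone sum on the log2 scale was 0.979 for E2f1, 0.980 for Mcm3, 0.981 for Mcm7 and 0.596 for Pcna, genes picked after their values were seen. Over the DNA replication list r ran from 0.292 (Pola2) to 0.981 (Mcm7). High values were not particular to that list. In the mitosis list r ran from 0.513 (Ccnf) to 0.983 (Cdc20), and in the 3′ end formation list from -0.583 (Zcchc6) to 0.987 (Srrt). The log2 fold change of Pcna, the sliding clamp, was 0.02 ± 0.18 and that of Mcm5, also of the helicase, -0.27 ± 0.21 (SE). Cdt1 was listed at 0 in all libraries. The 28 mitosis genes had a median of -0.12 and summed to 3095, 2115 and 2697 CPM in Ctrl and 3127, 2561 and 1469 CPM in DTR, with Mki67 at -0.25 ± 0.32, Top2a at -0.09 ± 0.25, Cdc20 lowest at -0.30 ± 0.23 and Ccnf highest at 0.19 ± 0.26 (SE).

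Set against the DNA replication genes, the histone sum was 0.505, 0.491 and 0.426 times their sum in Ctrl and 0.420, 0.353 and 0.370 times in DTR. These ranges did not overlap, although Ctrl replicate 3 and DTR replicate 1 nearly met. Against the mitosis genes the histone sum was 0.482, 0.515 and 0.436 times in Ctrl and 0.412, 0.329 and 0.447 times in DTR, which overlapped. These ratios were formed after the sums were seen, and no test was made.

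**Figure D5:**
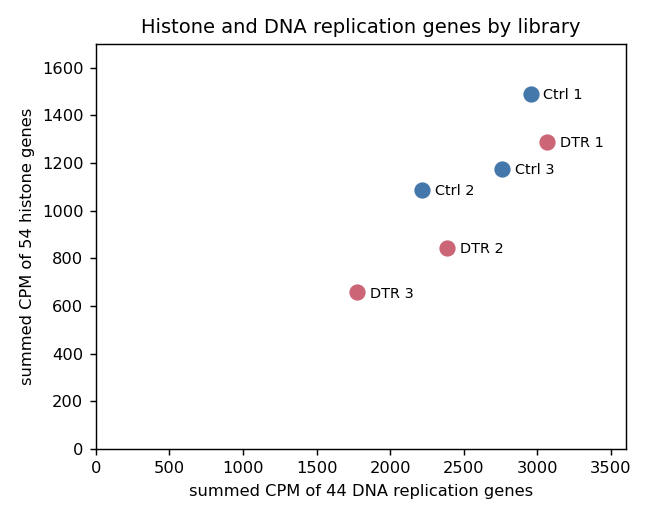
Summed CPM of 44 DNA replication genes (x axis) and of the 54 histone genes (y axis) in the 3 Ctrl and 3 DTR libraries, both axes from 0. DTR replicate 1 lies to the right of Ctrl replicate 1 but lower, and DTR replicate 3 is lowest on both axes, at 1777 and 657 CPM.

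Other RNAs without a usual poly(A) tail had estimates on either side of 0. Of 14 listed, 11 were tested, with a median log2 fold change of 0.04, from -0.48 ± 0.29 for Rn7s2 to 0.49 ± 0.21 (SE) for Malat1. Rn7sk, the scaffold of the P-TEFb inhibitor complex, had 2883, 2860 and 2809 CPM in Ctrl and 2722, 2372 and 2816 CPM in DTR. Malat1, a nuclear noncoding RNA, had 2409, 2417 and 2259 CPM in Ctrl and 2345, 3230 and 4405 CPM in DTR, and was thus highest in the 2 libraries where histone RNA was lowest. Its edgeR Benjamini-Hochberg adjusted p was 0.608.

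Cell type markers moved between libraries as well, and their part in the histone values was not tested. The 10 fibroblast markers summed to 13680, 5246 and 5211 CPM in Ctrl and to 10870, 5605 and 14160 CPM in DTR, so that the libraries with the highest and the lowest histone sum, Ctrl replicate 1 and DTR replicate 3, were the highest for fibroblast markers. The melanoma markers summed to 17930, 21030 and 20220 CPM in Ctrl and 17650, 19890 and 16860 CPM in DTR, lowest in DTR replicate 3. The 8 T and NK cell markers summed to 7.18 to 48.4 CPM in Ctrl and 14.7 to 22.5 CPM in DTR, and the 8 macrophage markers to 98.6 to 139.7 CPM in Ctrl and 97.4 to 109 CPM in DTR. The 8 endothelial markers summed to 11.6 to 19.0 CPM in Ctrl and to 27.5, 13.5 and 79.0 CPM in DTR, the last mostly from Tek at 62.8 CPM, while Emcn, Egfl7 and Tie1 had at most 3 counts in any library. The 3 leukocyte markers summed to 25.0 to 73.7 CPM in Ctrl and 43.3 to 51.8 CPM in DTR. B cell, neutrophil and keratinocyte markers summed to at most 6.12 CPM in any library, with Ly6g and Krt1 at 0.

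The 3 other genes whose log2 CPM tracked the log2 histone sum most closely over the 6 libraries were Prpf31 (Pearson's r = 0.996), Rpl4 (0.995) and Hkdc1 (0.995), a description over n = 6 libraries that share their depth and group. Prpf31 had 118.5, 101 and 106 CPM in Ctrl and 113, 91.7 and 82.1 CPM in DTR, the same order of libraries as the histone sum.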

How the data were processed

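The authors trimmed reads with cutadapt 3.4, aligned them to GRCm38 with STAR 2.7.3a and counted them per gene and strand with featureCounts 2.0.1, per the labels and methods. The deposited raw counts of 6 libraries were used. The deposited size-factor-normalised values and the columns of the authors' own comparison (fold changes, p-values and dispersions) were not used.

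Genes were kept by filterByExpr (minimum count 10, minimum total 15), scaled by TMM and compared, DTR over Ctrl, with edgeR 4.0.16 (quasi-likelihood test, two-sided, no covariates, R 4.3.3) and Benjamini-Hochberg adjustment over all 15133 tested genes, at a threshold of 0.05. DESeq2 1.42.0, other scalings and filters, a replicate block and each library left out were alternatives. The model fits were also run on simulated counts. Their noise was independent and of lower dispersion than in these data (common dispersion 0.0662), without swings shared by many genes. That run therefore does not show how the fits behave under the spread seen here. The SE of an estimate was obtained by dividing it by the square root of the F statistic. Exact permutation tests used log2(CPM + 0.05), as did deviations and correlations.

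Named genes were, per family, the 3 most abundant, the lowest and the highest estimate, and every gene at an unadjusted p under 0.05 or without overlap of the groups; from each companion list the lowest and highest, with Slbp, Lsm11, Npat, Mki67, Pcna, Mcm5 and Top2a. The 5 genes most like the histone sum were also to be named; 3 are given, and the rest are not reported here. Other names were chosen after their values were seen. The histone genes and lists were chosen with earlier results of these data known. Annotation came from GENCODE M21; the study names Ensembl releases 92 and 102, so exon lengths may differ slightly. Promoter sequences came from RefSeq on GRCm38.p6.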

Additional observations from a re-analysis of the deposited data

How the results depend on the processing

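No histone gene reached an adjusted p under 0.05 under any alternative. Over all genes 0 were called in the main comparison, 31 with DESeq2, and 0 to 2 with a library left out. The 3 histone genes lower at an unadjusted p under 0.05 became 7 of 54 with DESeq2 (against 1.96% of all genes tested there), 9 with every gene that had a count tested (16.7%, against 2.57%), and 0 to 22 with a library left out, at 22 without DTR replicate 1 (45.8%, against 5.36%) and 0 without Ctrl replicate 1 or DTR replicate 2. With the replicate number as a block they became 16 (33.3%, against 4.14%); same-numbered libraries deviated together at r = 0.114, 0.132 and -0.042, so the numbers were not taken to pair the libraries, and not every library correlated best with its own number. The median log2 fold change ran from -0.80 to -0.20 over the libraries left out, from -0.82 to -0.20 for H1, from -0.88 to -0.0517 for H2A, from -0.80 to -0.18 for H2B, from -0.71 to -0.33 for H3 and from -0.80 to -0.16 for H4. For the companion lists it ran from -0.34 to 0.0158 for the histone variants, from -0.27 to 0.08 for DNA replication, from -0.35 to 0.14 for mitosis, from -0.29 to 0.18 for the other RNAs without a poly(A) tail, from -0.18 to -0.02 for 3′ end formation and from -0.13 to -0.05 for the chaperones. The H2B sum ratio of -0.38 became 0.13 when only Hist2h2be, the H2B gene with under 10% shared words, was kept. Signs also turned in single genes. Hist1h4a was 0.0011 with DESeq2, 0.0048 with DESeq2-type size factors, 0.0059 and 0.0045 with the wider and the stricter filter and 0.0288 with library size alone. Hist1h2bc was 0.0154 with library size alone and Hist1h3d -0.0063 under the block. With libraries left out, Hist1h1a ran from -0.79 to 0.16, Hist1h2ai from -0.54 to 0.66, Hist1h2bc from -0.10 to 0.15, Hist1h2bm from -0.26 to 0.45, Hist1h3d from -0.12 to 0.47 and Hist1h4a from -0.46 to 0.46. Genes that kept their sign moved too, such as Hist1h1c from -0.67 to -0.29 and Hist1h4d from -0.70 to -0.235. The cause was not tested. Of the 44 histone genes with an estimate below 0, 33 kept an estimate below 0 in every alternative that tested them.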
